A study of Mus musculus with 6 samples.

Results

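The clustered histone genes are the protein-coding genes of the 4 mouse histone clusters, taken as every protein-coding row whose name began with Hist1h, Hist2h, Hist3h or Hist4h. This rule found 67 of the 54532 genes in the deposited table: 6 genes for histone H1, 18 for H2A, 18 for H2B, 12 for H3 and 13 for H4. By cluster, 54 belonged to Hist1, 10 to Hist2, 2 to Hist3 and 1 to Hist4. The rule used names only and no measured value.

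H2A, H2B, H3 and H4 are the core histones around which DNA is wrapped in the nucleosome, and H1 is the linker histone that binds where DNA enters and leaves it. Clustered genes are known as replication-dependent: their mRNA rises in S phase and usually ends in a conserved stem-loop instead of a poly(A) tail. A smaller group of replacement variants, encoded by single genes elsewhere, is made throughout the cell cycle with ordinary polyadenylated mRNA.

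The libraries came from RNA labelled as T cells after co-culture with ID8, a mouse ovarian surface epithelial cancer line. In 3 libraries (cisplatin) the ID8 cells had been pretreated with 40 µM cisplatin, a DNA-crosslinking platinum drug. In 3 libraries (control, named WT in the labels) they had been pretreated with PBS alone. All T cells came from spleens of C57BL/6 mice and had been activated with anti-CD3/CD28 beads and kept with IL-2, in both groups alike. The comparison asks what the drug pretreatment of the tumour cells changed in the T cells cultured with them. The study's methods speak of biological replicates. The labels do not say which cultures or animals the 3 libraries of a group came from, so p-values measure the spread between these libraries, whatever its source.

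The mRNA was captured with poly-T beads, and this bears on every value below, because a stem-loop mRNA without a poly(A) tail is captured poorly. The level of such a gene here is the level of its captured RNA, not of all its RNA. The elements that set these mRNAs apart are shown first. A stem-loop was searched as a stem of 6 bases (GG, a pair of pyrimidines, then CT), a loop of 4 bases that starts with T, and the reverse complement of the stem. It was found in an annotated transcript of 46 of the 67 genes (68.7%), against 61 of 21951 protein-coding genes (0.278%). Capitals mark the stem and lower case the loop, and the most frequent form of each group is given with the form in Hist1h4i.
H1, H2A, H2B and H3: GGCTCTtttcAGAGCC
H4: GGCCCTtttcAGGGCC
Hist1h4i: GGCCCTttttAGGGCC
The first form was held by 3 H1, 10 H2A, 8 H2B and 5 H3 genes, and the second by 7 H4 genes.

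Some clustered genes, most of them with a stem-loop match, have an annotated transcript that ends near a poly(A) signal, AATAAA or ATTAAA. Such a signal lay within the last 50 bases of an annotated transcript for 17 of the 67 genes (25.4%), against 80.6% of protein-coding genes. For the 4 most abundant genes that had one, the stretch from the signal (capitals) to the annotated end of the transcript is shown.
Hist1h1c: AATAAAaagcgtttagttttcattca
Hist1h4i: ATTAAAagtattctatgctaa
Hist3h2ba: AATAAAtttggttcaattttggccaca
Hist2h2be: AATAAAgttaccgattagtttc
In Hist1h1c 840 bases followed the stem-loop, in Hist1h4i 330 and in Hist3h2ba 169. No stem-loop match was found in the annotated transcript of Hist2h2be. The same was true of Hist1h2bq and Hist1h2br, which also had the signal.

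Few clustered histone genes gave a measurable level. The 67 genes together received 1159, 1305 and 1210 reads in the cisplatin libraries and 1932, 1971 and 2109 in the control libraries, which held 30606569 to 32169496 reads on genes each. In all 6 libraries together 12 members had no read, and 23 members had 3 reads or fewer in every library. A mean of at least 0.5 FPKM, the limit for testing, was reached by 11 members, of which the lowest had 0.526 FPKM. The highest member below the limit had 0.483 FPKM. FPKM is scaled by gene length and library size, so it is a scale on which levels of different genes can be set side by side.

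The 5 most abundant of the 67 genes held 77.7% of all reads on the clustered genes: Hist1h1c, Hist1h2bc, Hist1h4i, Hist3h2ba and Hist2h2be. Of these, 4 had an annotated poly(A) signal near the transcript end, against 13 of the other 62. The fifth, Hist1h2bc, is annotated with 2 exons, and neither element was found in its annotated transcript. The next gene in order had a mean of only 1.33 FPKM. The 5 most abundant genes also had little sequence shared exactly with another annotated gene, described below. At most 25.4% of the distinct stretches of 100 bases in any of them were shared, against at least 50% in 28 of the 67 members. Shared sequence can limit the reads given to a gene, so the signal and the sharing cannot be told apart here. The part of either in the levels was not tested. The genes with the signal summed to 19.3 to 22.0 FPKM in the cisplatin libraries and 31.3 to 33.1 in the control libraries. The 50 genes without it summed to 11.8 to 13.4 and 21.1 to 23.6 FPKM. The cisplatin sums were 0.635 and 0.565 times the control sums. In the first set the lower sum was due to Hist1h1c alone: without it, a choice made after the values were seen, the other 16 genes summed to 14.0, 15.8 and 14.1 FPKM with cisplatin and 12.0, 10.1 and 11.2 in control, higher in every cisplatin library. In the second set, without Hist1h2bc, the other 49 genes summed to 9.86, 9.93 and 7.50 FPKM with cisplatin and 11.5, 12.4 and 15.1 in control, still lower in every cisplatin library. The higher sum of the 16 genes lay mainly in Hist1h4i, Hist3h2ba and Hist2h2be. Their mean FPKM was 4.91, 4.20 and 3.45 with cisplatin and 4.02, 2.57 and 2.04 in control. The rest of the 16 went both ways, with Hist3h2a lower (0.576 against 0.834) and Hist1h4h higher (0.370 against 0.094). Neither difference in the sums was tested.

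**Figure D1:**
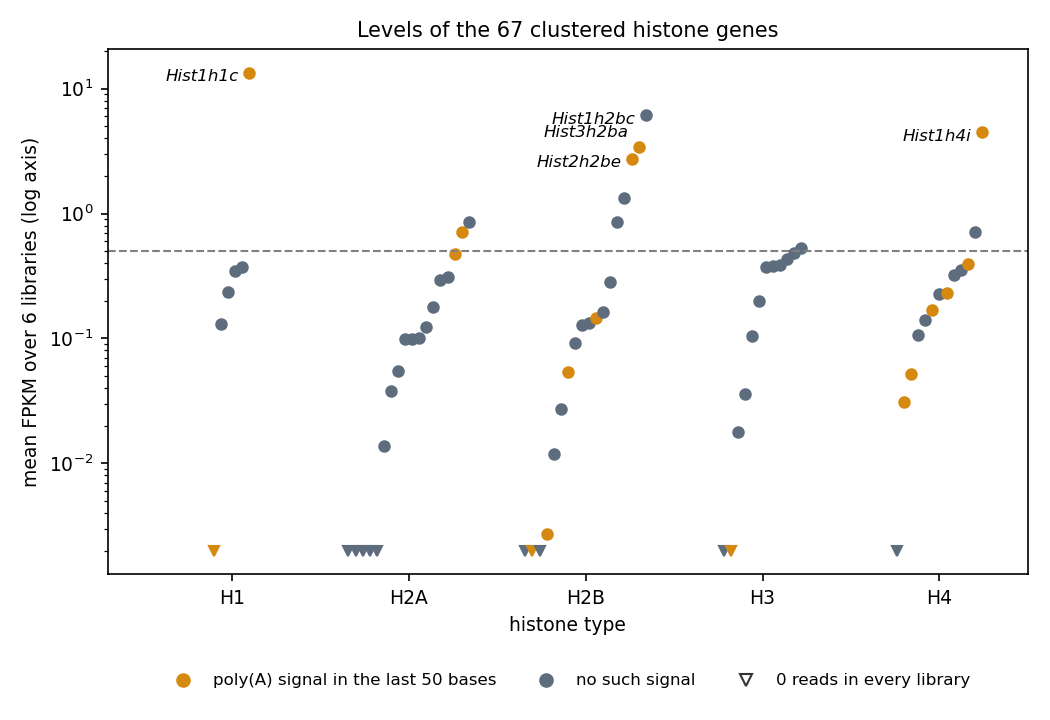
Mean FPKM over the 6 libraries (log axis) of each of the 67 clustered histone genes by histone type, coloured by an annotated poly(A) signal in the last 50 bases of a transcript, with the dashed line at 0.5 FPKM. Of the 5 genes above 2 FPKM, 4 carry the signal, and the triangles at the bottom are the 12 genes with no read.

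H1 held the largest share of the difference in the total. Summed over the 6 H1 genes, the level was 6.21, 7.15 and 6.13 FPKM in the cisplatin libraries and 20.3, 23.4 and 23.2 in the control libraries, a ratio of 0.291. The H2B sum lay at 12.0 to 14.6 against 16.3 to 18.2 FPKM (ratio 0.770), again without overlap. The H2A sum was 2.82 to 3.28 against 3.29 to 3.95 FPKM, where the groups only just missed each other. The H3 sum overlapped, at 1.24 to 3.69 against 3.07 to 4.57 FPKM, and so did the H4 sum, at 6.73 to 8.47 against 5.94 to 8.05. These sums are descriptions with no test.

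A pair of genes, Hist1h1c and Hist1h2bc, made up the difference between the groups. Without them, a choice made after the values were seen, the other 65 genes summed to 23.9, 25.7 and 21.5 FPKM with cisplatin and 23.5, 22.6 and 26.3 in control. These sums overlapped and stood at a ratio of 0.983, the higher sum of the genes with a poly(A) signal set against the lower sum of the rest. Hist1h1c alone took 22.0% to 24.9% of the reads on clustered histone genes in the cisplatin libraries and 46.9% to 51.0% in the control libraries.

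**Figure D2:**
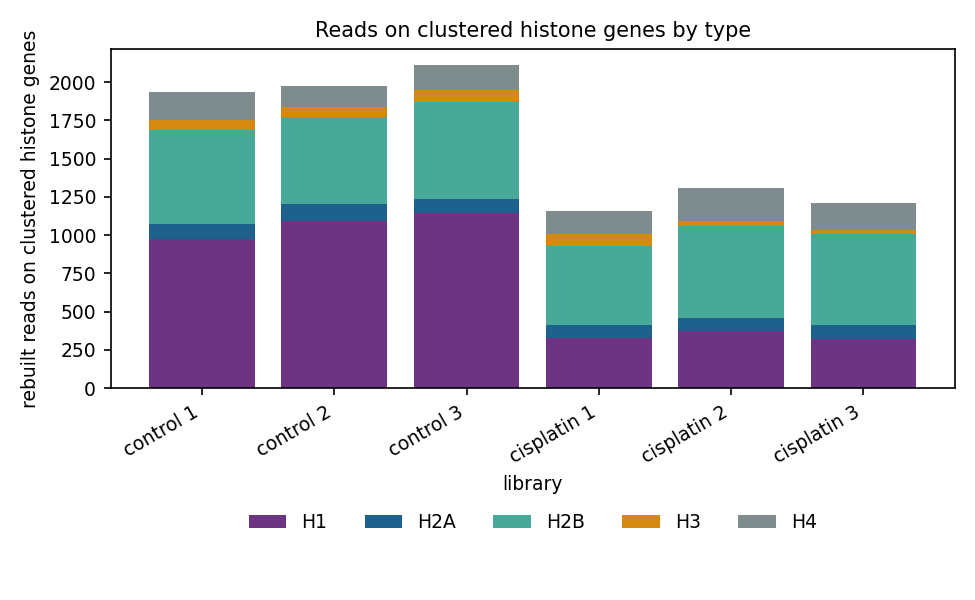
Reads on the clustered histone genes in each library, rebuilt from FPKM and gene length and stacked by histone type. The H1 segment holds 974 to 1141 reads in the control libraries and 323 to 376 in the cisplatin libraries, while the H4 segment overlaps between the groups.

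A gene was called changed where limma gave a Benjamini-Hochberg adjusted p under 0.05 and a difference of at least 1 on the log2(FPKM + 0.1) scale, a scale that understates the change of low genes. Of the 11 tested members, 4 were called lower with cisplatin and 0 higher. Over all 15874 tested genes 12.8% were called lower and 4.11% higher. Of the 4 members, Hist1h2bg reached the limit for testing only through its control level. By the adjusted p alone, 4 members were lower and 2 higher, against 29.0% and 27.5% of all tested genes. Complete separation of the 2 groups was seen for 4 lower and 2 higher members, against 32.3% and 31.9% of all tested genes (64.2% in either direction). The median difference of the 11 members was -0.14 on the log2 scale, against 0.03 over all tested genes.

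**Figure D3:**
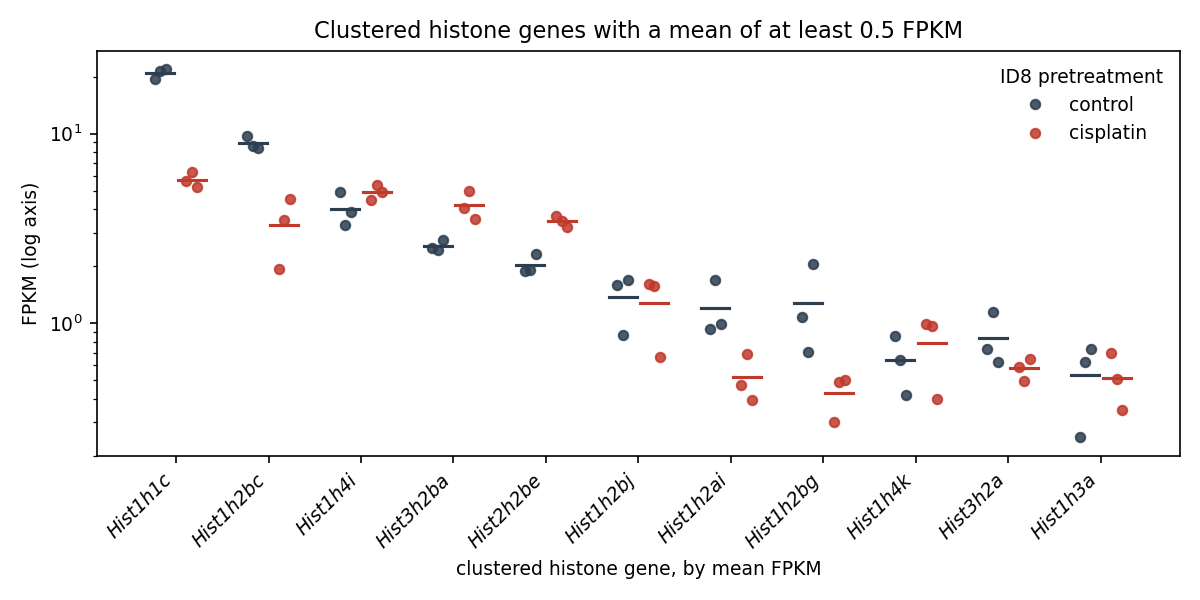
FPKM in each library (log axis) of the 11 tested clustered histone genes in order of mean level, with points for libraries and lines for group means. Hist1h1c, Hist1h2bc, Hist1h2ai and Hist1h2bg lie lower in all 3 cisplatin libraries, Hist3h2ba and Hist2h2be lie higher, and the other 5 overlap.

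Among the linker histones, Hist1h1c (H1f2 in current RefSeq naming) was the most abundant clustered gene and showed the clearest change. It lies in GRCm38 at chr13:23738808-23740367 on the plus strand as a single exon. Its level was 5.63, 6.29 and 5.26 FPKM with cisplatin and 19.3, 21.5 and 21.9 FPKM in control. The groups were far apart, with a control mean 3.65 times the cisplatin mean. On the log2 scale Hist1h1c fell by 1.85 (SE 0.08; limma adjusted p 3.6e-06). It passed in 19 of 19 alternative analyses, where its difference ran from -2.42 to -1.71.

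No other H1 gene reached 0.5 FPKM. Hist1h1e had 4, 19 and 9 reads with cisplatin and 15, 42 and 35 in control, so the groups overlapped. Its annotation overlaps Hist1h2be and Gm11398 on the same strand. Hist1h1b had 0, 2 and 12 reads with cisplatin and 4, 24 and 9 in control. Hist1h1a had 10, 10 and 2 against 8, 1 and 2 reads. These counts are too small and too uneven to place a direction from FPKM, although limma voom on rebuilt reads put Hist1h1e lower (-1.62, adjusted p 0.028). Hist1h1d had 26, 20 and 34 reads with cisplatin and 41, 16 and 46 in control, again overlapping. Hist1h1t, the linker histone of male germ cells, had 0 reads in all 6 libraries, and 0 reads in a library still allows up to 3.

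The H2B genes moved both ways. Hist1h2bc (chr13:23684199-23692908, plus strand) had 1.92, 3.50 and 4.51 FPKM with cisplatin and 9.77, 8.63 and 8.43 FPKM in control. All cisplatin values lay below the controls, though they spread more widely. The difference was -1.48 (SE 0.28; limma adjusted p 0.0041), and it passed in 19 of 19 alternatives. Hist1h2bg (chr13:23571396-23572013, plus strand), a much lower gene, had 6, 10 and 10 reads with cisplatin and 20, 13 and 39 in control. Its groups did not overlap, but the highest cisplatin count was close to the lowest control count. Its mean was 0.429 FPKM with cisplatin, under the limit for testing, and 1.28 in control. Its difference was -1.28 (SE 0.41; limma adjusted p 0.034). Its adjusted p stayed under 0.05 in 10 of 18 alternatives, and leaving out control replicate 1 or 3 or any of the 3 cisplatin replicates put its adjusted p at 0.059 to 0.091.

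Hist3h2ba and Hist2h2be, from other clusters, had higher values with cisplatin. Hist3h2ba (chr11:58948920-58949533, plus strand) had 4.08, 4.96 and 3.57 FPKM with cisplatin and 2.50, 2.44 and 2.76 FPKM in control. Hist2h2be (chr3:96221119-96223738, plus strand), known for its use in olfactory neurons, had 3.67, 3.48 and 3.21 FPKM with cisplatin and 1.89, 1.91 and 2.31 in control. Neither gene overlapped between the groups. Hist3h2ba rose by 0.68 (SE 0.13; limma adjusted p 0.0042) and Hist2h2be by 0.74 (SE 0.11; limma adjusted p 0.0013), both short of the fold change that a call needs. When each library was centred on its T-cell markers, which subtracts 0.57 from every difference, these were 0.11 (adjusted p 0.48) and 0.17 (adjusted p 0.22). Their higher values thus hold relative to library size and not relative to the T-cell markers. Hist1h2bj, the remaining tested H2B gene, had 1.60, 1.56 and 0.67 against 1.58, 0.86 and 1.69 FPKM, and its interval ran from -1.08 to 0.80. The testis-specific Hist1h2ba had 0 reads in every library.

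Of the H2A genes, Hist1h2ai and Hist3h2a were tested. Hist1h2ai (chr13:21716422-21716814, plus strand) had 6, 9 and 5 reads with cisplatin and 11, 20 and 12 in control, with no overlap. Its difference was -1.06 (SE 0.31; limma adjusted p 0.025). Its adjusted p stayed under 0.05 in 13 of 18 alternatives, and without control replicate 2, cisplatin replicate 1 or cisplatin replicate 3 its adjusted p was 0.064 to 0.079. Hist3h2a (chr11:58954685-58956830, plus strand), whose annotation overlaps Trim17 on the same strand, had 0.59, 0.49 and 0.65 against 0.73, 1.15 and 0.62 FPKM. Its groups overlapped and the interval of its difference ran from -1.12 to 0.26. Below the limit, Hist1h2ae had 14, 10 and 10 against 12, 6 and 11 reads, and Hist1h2ak had 3, 9 and 2 against 6, 2 and 1.

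Only Hist1h3a was tested among the H3 genes (chr13:23761853-23762386, minus strand). It had 0.69, 0.51 and 0.35 FPKM with cisplatin and 0.25, 0.62 and 0.73 in control, and its difference was 0.01 with an interval from -1.05 to 1.08. The interval is wide enough to hold a change of the size called here in either direction. Just below the limit for testing, Hist1h3e had 6, 2 and 6 reads with cisplatin and 18, 22 and 12 in control, and these groups did not overlap. It was lower by limma without the limit on low levels (-1.56, adjusted p 0.032) and by limma voom on rebuilt reads (-1.91, adjusted p 0.023). Hist1h3i had 2, 8 and 1 against 4, 8 and 14 reads, and Hist1h3h had 8, 6 and 0 against 4, 2 and 10.

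The H4 genes showed no called change. Hist1h4i (chr13:22040636-22041362, minus strand) was the third most abundant clustered gene, with 4.46, 5.35 and 4.92 FPKM with cisplatin and 4.90, 3.30 and 3.85 FPKM in control. Control replicate 1 lay among the cisplatin values, and the difference of 0.30 (interval -0.06 to 0.66) did not pass (limma adjusted p 0.14). Without control replicate 1 it was 0.45 and passed (limma adjusted p 0.021), while centring on T-cell markers turned it to -0.27 (adjusted p 0.15). Hist1h4k (chr13:21750194-21750505, minus strand) had 0.99, 0.97 and 0.40 against 0.85, 0.64 and 0.42 FPKM, with an interval from -0.77 to 1.20. Hist2h4 had 9, 34 and 20 against 21, 16 and 21 reads, and Hist1h4d had 17, 18 and 14 against 6, 13 and 8. Hist4h4, the lone gene of its cluster, had no read in the 3 cisplatin libraries and 13, 8 and 6 reads in control. It was called lower when the limit on low levels was lifted (limma adjusted p 0.014), a fit in which 4 of 55 members and 7.31% of all genes were called lower. By limma voom on rebuilt reads these were 4 of 19 members and 13.1% of all genes.

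Among the 56 members that were not tested, 44 had a read, and the groups did not overlap for 5 that were lower (11.4%) and 1 that was higher (2.27%) with cisplatin. Over the 17582 genes below the limit that had a read, these shares were 8.53% and 4.89%, so the members' shares were near the background. Lower were Hist1h3e, Hist4h4, Hist1h4j, Hist1h3f and Hist1h2bk, and higher was Hist1h4h, with 4, 4 and 9 against 0, 2 and 2 reads. Together the untested genes held 207, 217 and 235 reads with cisplatin and 273, 264 and 305 in control.

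Near-identical sequence limits which copy a read can be given to. Stretches of 100 bases shared exactly with another annotated gene, on either strand, were found in 61 of the 67 members. In 28 they made up at least 50% of the distinct stretches in the gene's annotated transcripts. Genes annotated over the same place counted too, so not all of this sharing is with another histone copy. For the called genes the shared part was 5.07% in Hist1h1c, 25.4% in Hist1h2bc, 44.9% in Hist1h2bg and 88.4% in Hist1h2ai. Hist2h2be shared none and Hist3h2ba 4.85%. How reads with several equal matches were counted is not given in the sources used here. The values of Hist1h2ai and Hist1h2bg are therefore uncertain as values of single genes. The same holds for several members with no read. Of these, Hist2h2aa1, Hist2h2aa2, Hist2h2bb, Hist2h3b and Hist2h3c1 shared 100%, Hist1h2ah 89.5%, Hist1h4b 71.8% and Hist2h2ab 59.7%. The others shared less: Hist1h2bp 31.1%, Hist1h2ba 27.4%, Hist1h2aa 10.3% and Hist1h1t 0%. Hist2h2bb shared only with Gm20628 and Gm42743, whose annotations overlap it. Hist1h2aa shared only with Gm44344, which overlaps it on the opposite strand. Whether shared sequence lowered these counts was not tested. Hist1h2ai also overlaps Gm44367 on the opposite strand, and whether counting used strand is not given.

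Promoter windows from 250 bases before to 50 bases after the start were found in RefSeq (GRCm38.p6) for 61 members. Motifs known from histone promoters, 4 in all, were searched on both strands: the octamer ATTTGCAT, known from H2B promoters, the TATA box in the form TATAAA, the box of the letters CCAAT that common activators bind, and the H1 box in the form AAACACA. The octamer was present in 7 of 18 H2A and 6 of 16 H2B windows and in 0 of the H1, H3 and H4 windows, against 1.75% of 27025 genes. The H1 box was present in 4 of 5 H1 windows, against 7.14% of genes. TATAAA was found in 55.7% of member windows against 14.2% of genes, and CCAAT in 85.2% against 37.9%. Every H1, H2A, H2B and H3 window held CCAAT, but only 3 of 12 H4 windows did. Of the 18 H2A windows, 10 lay within 500 bases of an H2B window on the opposite strand, so some of these stretches are shared. Among the 7 H2A windows with the octamer, 3 lay this close to an H2B window. No window was found for Hist1h2bc and Hist2h2be, so H2A windows beside these genes were not counted. Octamer windows of this kind belonged to Hist1h2ac (minus strand, gene end 23683948) beside Hist1h2bc (plus strand, start 23684199). Likewise, that of Hist2h2ac (minus strand, gene end 96220880) lay beside Hist2h2be (plus strand, start 96221119). The 100 bases before the start are shown for a called H1 gene, a called H2B gene and an H2B gene that was higher, with matches to the 4 elements in capitals.
Hist1h1c, chr13:23738707-23738806, plus strand: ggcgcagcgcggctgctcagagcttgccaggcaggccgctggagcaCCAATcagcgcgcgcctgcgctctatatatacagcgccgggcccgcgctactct
Hist1h2bg, chr13:23571300-23571399, plus strand: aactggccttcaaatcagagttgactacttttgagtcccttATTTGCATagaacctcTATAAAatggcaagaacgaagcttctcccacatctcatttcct
Hist3h2ba, chr11:58948811-58948910, plus strand: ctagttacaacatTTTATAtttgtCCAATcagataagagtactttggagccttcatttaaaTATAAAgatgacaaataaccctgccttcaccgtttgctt
The H1 box of Hist1h1c lay further upstream than the stretch shown. These matches are descriptions of the windows and were not tested against the changes.

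The replacement variants, with far higher levels, offered a comparison by role. All 10 tested variants of the 11 listed differed by adjusted p, 6 higher and 4 lower, and 2 were called lower. For this list and those below, 27.5% of all tested genes were higher and 29.0% lower by adjusted p. Calls were made for 4.11% and 12.8% of them. H1f0, the linker histone of differentiated and resting cells, fell from 97.4 ± 4.8 to 19.6 ± 0.69 FPKM (SD, n = 3 per group), a log2 difference of -2.31 (SE 0.05; limma adjusted p 1.6e-07). H2afy2, a macroH2A gene, was at 3.71 ± 0.25 FPKM in control and 0.358 ± 0.18 with cisplatin (-3.15, SE 0.33; limma adjusted p 0.00024). Its cisplatin level lay under the limit for testing, which it reached through its control level. Hist1h1c and H1f0, the most abundant linker genes of the 2 kinds, were thus both lower. H3f3b and H3f3a, which encode the same H3 replacement protein, fell by 0.53 and 0.23. H2afj (0.64), H2afx (0.46), which marks DNA breaks when phosphorylated, H2afy (0.25) and H2afz (0.21) rose by less than a call needs. H1fx, the other replacement linker histone, was below the limit for testing and went the other way, with 34, 33 and 23 reads with cisplatin and 3, 10 and 12 in control, without overlap. Centring on the T-cell markers took the median of the list from 0.19 to -0.38.

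**Figure D4:**
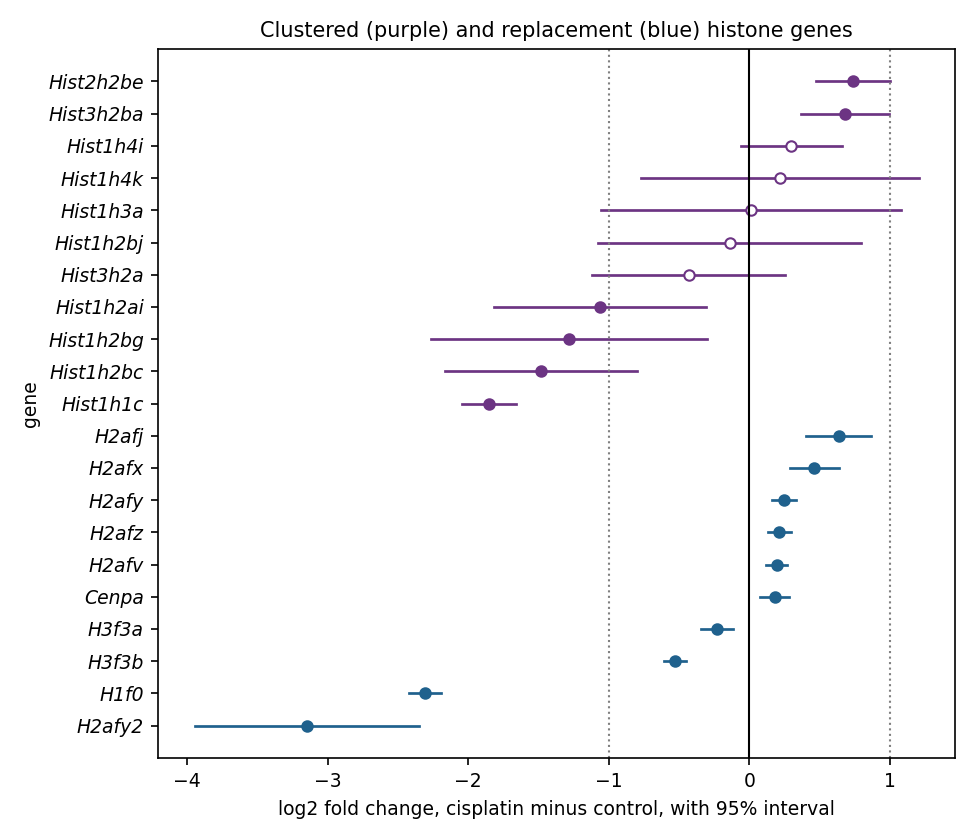
Log2 difference between cisplatin and control with its 95% interval for the 11 tested clustered histone genes (purple) and the 10 tested replacement variants (blue). Filled points have a limma adjusted p under 0.05 and dotted lines mark differences of -1 and 1; H1f0, H2afy2, Hist1h1c, Hist1h2bc, Hist1h2bg and Hist1h2ai lie past -1.

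Of 26 listed genes for the making and decay of histone mRNA, 23 were tested, and 11 were higher and 2 lower by adjusted p, with none called. Their median was 0.19, and it turned to -0.38 when libraries were centred on the T-cell markers. Slbp, which binds the stem-loop, was at 8.20 ± 0.66 FPKM with cisplatin and 7.11 ± 0.69 in control (0.21, limma adjusted p 0.099). Npat, the coactivator of histone gene transcription, rose by 0.21 (limma adjusted p 0.0054), Casp8ap2 by 0.53 and Hinfp, an activator of H4 genes, by 0.48. The 2 lower genes were the cleavage factors Cstf2 (-0.24) and Fip1l1 (-0.15).

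Of 19 histone chaperone genes, 8 were higher and 4 lower by adjusted p, none called, with a median of 0.12. Centring on the T-cell markers turned that median to -0.45, with 2 genes called. Asf1b, which hands H3 and H4 to assembly factors in S phase, rose by 0.77 and Nasp by 0.53. Hat1, which acetylates new H4, fell by 0.52 and Hjurp, the chaperone of Cenpa, by 0.51. Among 25 S-phase genes, 18 were higher and 2 lower by adjusted p, with a median of 0.35. Over all tested genes 27.5% were higher and 29.0% lower by adjusted p. Rrm2, a subunit of ribonucleotide reductase, was called higher (1.05, SE 0.06; limma adjusted p 1.3e-05), whereas E2f1 (-0.39) and Rrm1 (-0.32) fell. Against the T-cell markers the S-phase median was -0.22 and Rrm2 was no longer called. Of 6 cell cycle exit genes, 1 was higher (Btg1, 0.54) and 3 were lower (Cdkn1a, -0.48; Cdkn1b, -0.29; Ccng2, -0.14).

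Marker RNA of several cell types also differed between the groups. Markers of T cells, B cells, myeloid cells and ID8 cells gave reads in every library. All 21 T-cell markers were tested and higher with cisplatin, with a median of 0.59 and a summed level of 2883 to 2948 against 1845 to 1952 FPKM. Of 23 ID8 markers 17 were tested, 16 were lower by adjusted p and 15 called, with a median of -2.34 over the tested markers and a summed level of 241.3 to 247.0 against 1633 to 1717 FPKM. Krt19, an epithelial keratin, went from 646 FPKM in control to 52.9 with cisplatin. B-cell markers were higher in 10 of 10 (summed level 3638 to 3711 against 1700 to 1787 FPKM), and of 11 tested myeloid markers 8 were higher and 2 lower (Mpeg1, -0.81; Cd14, -0.47) by adjusted p, with 7 called higher (summed level 161.4 to 184.5 against 125.0 to 131.3 FPKM). The part of these cell types in the lower Hist1h1c, Hist1h2bc and H1f0 values was not tested. In bulk RNA, fewer cells of a type and less RNA per cell cannot be told apart.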

How the data were processed

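RNA was sequenced from 3 cisplatin and 3 control libraries. Poly(A) RNA was captured with poly-T beads. The authors deposited FPKM per gene. The submitters' processing notes name fastp, HISAT2 2.0.5, featureCounts 1.5.0-p3 and mm10, whereas the study's methods name LifeScope, and settings for strand and multiple matches are not given in the sources used here. Whole reads were rebuilt from FPKM and gene length: 99.9961% to 100% of values above 0 came within 0.1 of a whole number, at 30606569 to 32169496 reads per library. Counting error alone limits values of a few reads.

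FPKM of all genes with a mean of at least 0.5 over the 6 libraries (15874 genes) was fitted as log2(FPKM + 0.1) with limma 3.58.1 (R 4.3.3; empirical Bayes with trend, two-sided, Benjamini-Hochberg over all of them). The study's methods fitted a count model with the same limits, an adjusted p of 0.05 and a fold change of 2, and a call needed both. The script was tested on simulated data. Members, companion lists and sequence features were chosen with earlier results of these data known. Named genes were the 4 most abundant members of each type, all called members, genes of the companion lists and, without a fold change, the other members under the limit. Transcripts were read from GENCODE for GRCm38, where the coordinates of all 67 members were the same as in the table. Promoters came from RefSeq. Alternatives were other pseudocounts (0.01 and 1), limits on low levels, scalings and priors, voom on rebuilt reads, a replicate block and leaving out each library; FPKM recomputed on rebuilt totals was chosen after seeing the data. A comparison of protein sequences was planned and not run.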

Additional observations from a re-analysis of the deposited data

How the results depend on the processing

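Hist1h1c and Hist1h2bc passed under each of their 19 alternatives. The 4 clustered histone genes called lower became 2 under a pseudocount of 1, a limit of 5 FPKM (242 genes higher and 903 lower in all) and quantile normalization, and 2 to 3 with a library left out, where Hist1h2ai, Hist1h2bg or both lost the call. H2A calls were 0 under a pseudocount of 1 (311 genes higher in all), no limit, 5 FPKM, quantile normalization, voom (1128 genes higher in all) and recomputed FPKM, and H2B calls 1 under the first 5 of these. With no limit 1 H3 and 1 H4 gene were called, and voom called 2 H1 and 1 H3 genes, where 7.31% and 13.1% of all genes were lower. At 5 FPKM 1 replacement variant was called and the member median was -1.67, over fewer genes. Centring on T-cell markers gave a member median of -0.71, 142 genes higher and 3713 lower (653 and 2034 otherwise), and 2 H2A genes, 1 cell cycle exit gene, 2 chaperones and 0 S-phase genes called. Without a minimum fold change 2 members were higher, with 4 H2B genes called, 4 cell cycle exit genes, 12 chaperones, 13 mRNA factors, 10 variants and 20 S-phase genes, and 4360 genes higher and 4603 lower in all. With protein-coding genes only, 255 genes were higher, by construction. Leaving out each library gave 0 to 1 H2A, 1 to 2 H2B and 0 to 1 S-phase calls. Differences that had not passed changed sign: Hist1h3a to -0.010 (pseudocount of 1), -0.56 (centring), -0.0036 (TPM scaling) and -0.37 to 0.25 (a library left out), Hist1h2bj to 0.047 (quantile) and -0.42 to 0.24 (a library left out), Hist1h4i to -0.27 and Hist1h4k to -0.35 (centring), and Hist1h4k to between -0.015 and 0.59 with a library left out. The cause was not tested. A replicate block kept 4 members lower and gave 651 genes higher and 2011 lower, but same-numbered libraries did not deviate together (correlations 0.023, -0.063 and -0.021), so the numbers do not pair the libraries. The 56 members under 0.5 FPKM had few or no reads at this depth.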

Other observations

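The table also held 3 histone-cluster pseudogenes, which entered no comparison. Hist3h2bb-ps, which shares sequence with Hist3h2ba, had 8, 0 and 4 reads with cisplatin and 3, 2 and 0 in control. Hist1h2aj had 2, 0 and 0 reads with cisplatin and 0, 1 and 1 in control, and Hist1h2al had no read with cisplatin and 1 in each control library.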
